A study of Homo sapiens with 24 samples.

Results

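Peaks of N6-methyladenosine (m6A) on long noncoding RNAs (lncRNAs) were examined in 6 peak lists of human pancreatic differentiation. A peak was counted as a lncRNA peak when every Ensembl gene that the deposited list gave for it was of type lncRNA in GENCODE 44. This held for 25052 of 228472 peaks (11.0%), on 6787 of the 18866 lncRNA genes of that annotation. Of these peaks 1030 carried several lncRNA identifiers, and in counts of genes such a peak was credited to the gene with most exonic bases in it. The numbers of peaks given for a named gene include every lncRNA peak with its identifier. Peaks on protein-coding genes, 174660 in all, served for comparison.

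The study sequenced 24 libraries of the MEL1 human embryonic stem cell line, an established line that carries a GFP reporter in the insulin gene. In m6A-seq, RNA fragments bound by an m6A antibody (IP) are sequenced beside the unselected fragments (input), and stretches with an excess of IP reads are called as peaks. Each of 6 populations had 2 IP and 2 input libraries, which the authors combined into 1 peak list. Batch 1 held 4 stages without a named genetic change, the undifferentiated stem cells (hPSC), their definitive endoderm (DE), the pancreatic progenitors (PP) after it and the islet-like organoids (hILO), made from mRNA with a SYSY antibody. Batch 2 held PP cells that were wild type (WT PP) or lacked the m6A demethylase ALKBH5 (A5-KO PP), made from total RNA with a Millipore antibody, input depleted of rRNA and another library kit. The knockout came from CRISPR-Cpf1 cutting in the first exon of ALKBH5, with edited colonies picked, so the A5-KO PP list may reflect the derivatives of 1 clone. Batch and experiment coincide, so values were compared among the 4 stages or between WT PP and A5-KO PP, and values across the batches are given side by side only. With 1 list per population there was no replicate value and no test. Intervals are Wilson 95% intervals, which cover counting error only.

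LncRNAs are longer transcripts without a long reading frame, often spliced, polyadenylated and made in fewer cell types than mRNAs. m6A is placed on RNA polymerase II transcripts by the METTL3 and METTL14 complex, mostly at DRACH sequences (A, G or T, then A or G, then A, C, and A, C or T) and often in long last exons. ALKBH5 removes the mark. Several lncRNAs of this lineage lie beside the regulators of the same steps, such as LINC00261 beside FOXA2, PLUT beside PDX1 and GATA6-AS1 opposite GATA6.

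Sequences of lncRNA peaks are shown for 2 sets, with each DRACH match in capitals, written 5′ to 3′ on the strand of the RNA (GRCh38). The first set were single-exon hPSC peaks clear of coding exons that were shared with all 5 other lists. Of 68 such peaks, 4 are printed, on WAC-AS1 (chr10:28523802-28524051, minus strand, exon 3 of 3), NUTM2B-AS1 (chr10:79668358-79668432, minus strand), LINC00205 (chr21:45296138-45296437, plus strand, exon 3 of 3) and BAIAP2-DT (chr17:81029130-81029254, minus strand, exon 2 of 2). They held 4, 2, 7 and 4 DRACH matches.
WAC-AS1: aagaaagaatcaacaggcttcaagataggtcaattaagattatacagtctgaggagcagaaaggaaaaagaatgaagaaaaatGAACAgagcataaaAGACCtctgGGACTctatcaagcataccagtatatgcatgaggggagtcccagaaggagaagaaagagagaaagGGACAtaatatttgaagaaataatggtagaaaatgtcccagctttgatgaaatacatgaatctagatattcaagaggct
NUTM2B-AS1: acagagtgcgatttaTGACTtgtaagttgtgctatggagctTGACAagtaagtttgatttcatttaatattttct
LINC00205: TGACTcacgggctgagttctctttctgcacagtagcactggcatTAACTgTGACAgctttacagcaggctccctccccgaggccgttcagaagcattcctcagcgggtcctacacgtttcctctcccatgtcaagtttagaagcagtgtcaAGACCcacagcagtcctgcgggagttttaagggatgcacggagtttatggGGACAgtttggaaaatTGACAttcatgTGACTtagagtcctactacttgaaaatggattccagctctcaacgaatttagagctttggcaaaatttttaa
BAIAP2-DT: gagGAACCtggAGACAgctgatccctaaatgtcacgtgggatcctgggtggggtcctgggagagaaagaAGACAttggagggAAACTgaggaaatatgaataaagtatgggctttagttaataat

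The other set comes from genes with peaks in a single stage, or in the A5-KO PP list alone, and shows what such peaks look like in sequence. They lay on HOXA-AS3, found in PP alone among the stages (chr7:27152762-27152936, plus strand, exon 3 of 3), on DIP2C-AS1, found in hILO alone among the stages (chr10:651218-651492, plus strand), and on MIR646HG, found in A5-KO PP and no other list (chr20:60284758-60284832, plus strand). They held 3, 10 and 3 DRACH matches.
HOXA-AS3: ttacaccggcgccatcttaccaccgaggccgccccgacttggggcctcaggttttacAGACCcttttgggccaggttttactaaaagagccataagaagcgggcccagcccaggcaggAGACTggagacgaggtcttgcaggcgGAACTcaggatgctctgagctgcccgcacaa
DIP2C-AS1: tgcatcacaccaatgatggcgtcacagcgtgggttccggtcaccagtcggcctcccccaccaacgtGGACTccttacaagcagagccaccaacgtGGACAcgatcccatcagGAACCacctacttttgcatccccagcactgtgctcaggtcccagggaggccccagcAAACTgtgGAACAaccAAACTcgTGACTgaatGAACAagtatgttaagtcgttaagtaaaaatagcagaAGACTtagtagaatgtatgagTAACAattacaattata
MIR646HG: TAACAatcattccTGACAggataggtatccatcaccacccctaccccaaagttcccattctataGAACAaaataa

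Before any read value was used, the columns of each list were compared with each other. Gene identifiers followed the coordinates, since 100% of lncRNA peaks lay on the strand of their gene. Read counts did not follow them in much of each list. Where a peak had identical coordinates in hPSC and DE, its input reads correlated with r = 0.46 on the log2 scale (Pearson, 2770 peaks), and the value was 0.19 between DE and PP (2082 peaks), 0.21 between PP and hILO (2118 peaks) and 0.31 for the 2 genotypes (3623 peaks). The correlation depended on the place in the list: between hPSC and DE it was 0.88 in segment 4 and -0.04 in segment 10 when these peaks were cut into 10 equal segments by their order. For lncRNA peaks, which mostly come late in the lists, it was 0.05, 0.06, 0.06 and 0.05 for the same pairs of lists (462, 356, 418 and 659 peaks). In contrast, peaks next to each other in the numbering but on different chromosomes shared read levels, with r from 0.28 in hPSC to 0.42 in A5-KO PP. One hPSC peak of LINC00205 on chromosome 21 was listed with 5961 input and 48452 IP reads, and the peak numbered after it, on ENSG00000223774 of chromosome 1, with 5965 and 48452. The reads, log2 enrichment and p-value on the row of a lncRNA peak may therefore belong to a peak some rows away. The results below rest on coordinates, genes, exons and sequence, and read values are given as counts and medians over rows, with no value for a single RNA.

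**Figure D1:**
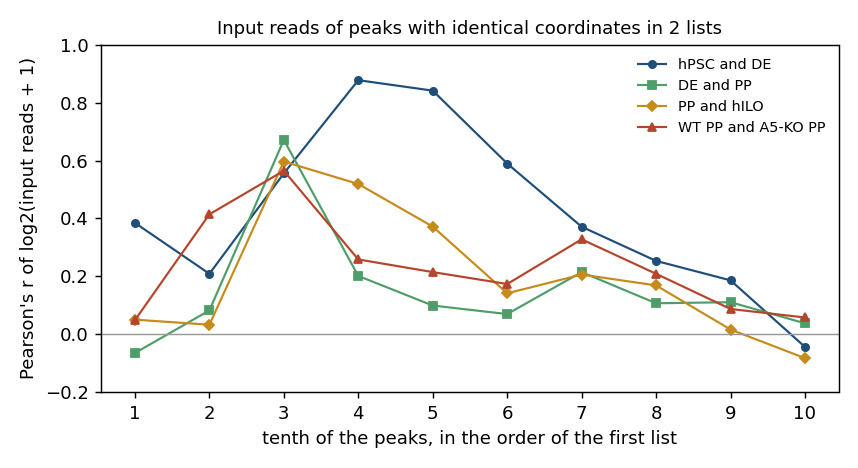
Pearson's r of log2(input reads + 1) between 2 lists (y axis) for peaks with identical coordinates in both, in 10 equal segments by their order in the first list (x axis). Between hPSC and DE r peaked at 0.88 in segment 4, and all 4 pairs of lists were between -0.08 and 0.06 in segment 10.

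Populations were checked against marker genes by peak presence. INS, GCG and SST, the islet hormones, had peaks in hILO alone, but the endocrine genes CHGA and NEUROD1 did not: CHGA had 1 to 3 peaks in every list, and NEUROD1 had 1 in PP, 4 in hILO and 4 in A5-KO PP. PDX1 and NKX6-1, factors of pancreatic progenitors, had peaks in PP, hILO, WT PP and A5-KO PP but not before. The other progenitor markers had earlier peaks, SOX9 with 2 and ONECUT1 with 5 in hPSC, and MNX1 with 3 in DE. Among pluripotency markers, POU5F1 and NANOG had peaks in hPSC and DE alone, LIN28A had 1 in each of the 4 stages, ZFP42 had 2 in hPSC, 2 in DE and 1 in each list of batch 2, and DNMT3B had 1 in PP and none in hPSC. Peak presence thus followed the labels for some markers of a population and went against them for others. Among definitive endoderm markers, EOMES had peaks in DE alone, SOX17 in DE and both lists of batch 2, FOXA2 and GATA6 in DE and every later list, and CXCR4 in all 6 lists. Markers of other lineages were present too: the intestinal factor CDX2 had 3 to 6 peaks in PP, hILO and batch 2, the mesenchymal collagen COL3A1 had 9 in PP, 3 in hILO and 1 in A5-KO PP, and COL1A1 had 1 to 4 in all 6 lists. The hepatic genes ALB and AFP had 1 each in hILO, AFP also 1 in each list of batch 2, PAX6 had 1 in DE and 4 in hILO, and SOX2 had none. Fewer cells of a type and less RNA per cell cannot be told apart in these lists, and a gene without a listed peak may still be transcribed or methylated. The reads inside all peaks of a list ranged from 6987612 in PP to 28463998 in hILO for input and from 30723097 in DE to 79822815 in hPSC for IP.

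LncRNAs held between 7.78% and 9.07% of the peaks in the stages, and a larger share in A5-KO PP than in WT PP. The share was 8.80% in hPSC (3225 of 36659 peaks, interval 8.51% to 9.09%), then 9.07% (2963 of 32680), 7.78% (2263 of 29083) and 8.25% (2599 of 31519) in the 3 later stages. WT PP had 9.44% (4090 of 43312, interval 9.17% to 9.72%) and A5-KO PP 18.0% (9912 of 55219, interval 17.6% to 18.3%). The intervals of the 2 genotypes did not overlap, but they do not cover variation between cultures. The number of lncRNA genes with a peak was 1986, 1878, 1446 and 1700 along the stages, 2102 in WT PP against 5293 in A5-KO PP. Peaks per lncRNA gene were 1.95 in WT PP against 1.87 in A5-KO PP, so the larger number in the knockout list went with more genes and not with more peaks on each. Coding peaks rose in number less, from 33771 to 38523.

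The difference between the genotypes was larger among peaks over several exons. Among peaks in 1 exon, lncRNAs held 8.91% in WT PP (interval 8.61% to 9.22%) and 10.7% in A5-KO PP (10.4% to 11.0%). Among peaks over several exons they held 11.2% in WT PP (10.6% to 11.9%) and 29.6% in A5-KO PP (29.0% to 30.2%). In the stages the single-exon share ran from 6.65% in hILO to 7.78% in DE, and the share over several exons from 9.78% in PP to 13.9% in DE.

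**Figure D2:**
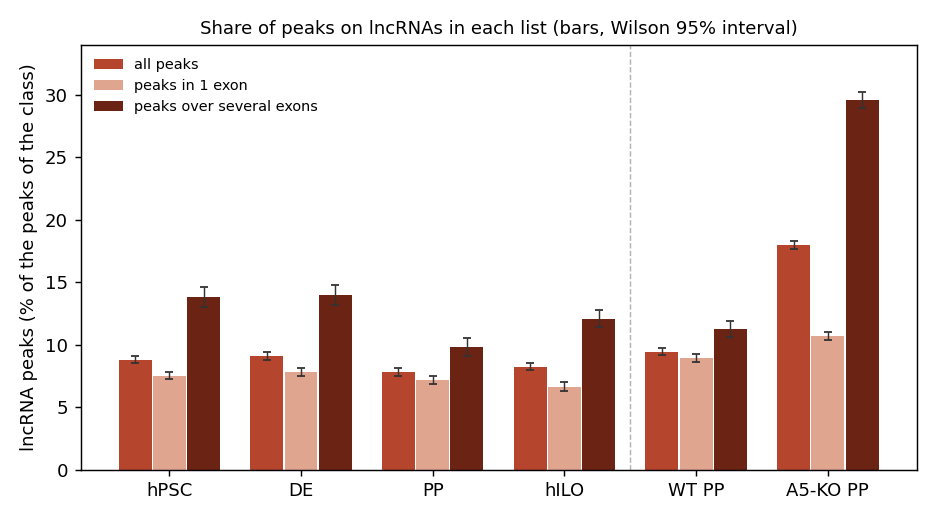
LncRNA peaks as a percentage of all peaks, of peaks in 1 exon and of peaks over several exons (y axis) in each list (x axis), with Wilson 95% intervals, and a dashed line between batches. The bar for peaks over several exons stands at 29.6% in A5-KO PP and at 11.2% in WT PP.

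The lists gave all but 15 of the 228472 peaks as spans from first to last base, so the exons within them were taken from the annotation. The exonic length so obtained was a multiple of 25 bases for 90.1% of lncRNA peaks over several exons, against 3.80% of their genomic spans. With the exons of all annotated transcripts, lncRNA peaks spanned several exons more often than coding peaks in each list. Along the stages the share was 32.0%, 32.2%, 29.3% and 43.1%, against 19.5%, 20.1%, 23.2% and 28.6% of coding peaks. In WT PP it was 27.3% (interval 25.9% to 28.7%) against 23.1% of coding peaks, and in A5-KO PP 63.4% (62.5% to 64.4%) against 33.4%. With the exons of the longest transcript alone, the shares fell to 15.6% (14.4% to 16.9%) against 15.9% of coding peaks in WT PP, where the intervals overlapped, and to 41.8% (40.7% to 42.9%) against 22.7% in A5-KO PP. In the stages they were then 19.6% to 29.2% against 12.8% to 20.9%, higher for lncRNA peaks in each. The annotation gave the longest transcript of the genes concerned a median of 2 to 3 exons for lncRNAs and 8 for coding genes. In A5-KO PP, 42.5% of lncRNA peaks covered 2 exons, 15.7% covered 3 and 5.23% covered 4 or more, and the most exons in 1 peak was 15.

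These peaks were short in RNA and long in the genome. The median genomic span of a lncRNA peak over several exons was 6172 bases in hPSC, 9462.5 in WT PP against 23876 in A5-KO PP, introns included, while its usual exonic length was 175 bases. In A5-KO PP 3903 of 6285 such peaks (62.1%) had exactly 175 exonic bases. The share was 47.0% in WT PP and between 45.3% and 57.1% in the stages, against 39.5% of coding peaks over several exons in A5-KO PP and 20.5% in WT PP. Among lncRNA peaks in 1 exon, 12.3% in A5-KO PP and 16.0% in WT PP had that length. The spans were joined through the exons of any annotated transcript of the gene, so a peak over several exons does not show which isoform was read.

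**Figure D3:**
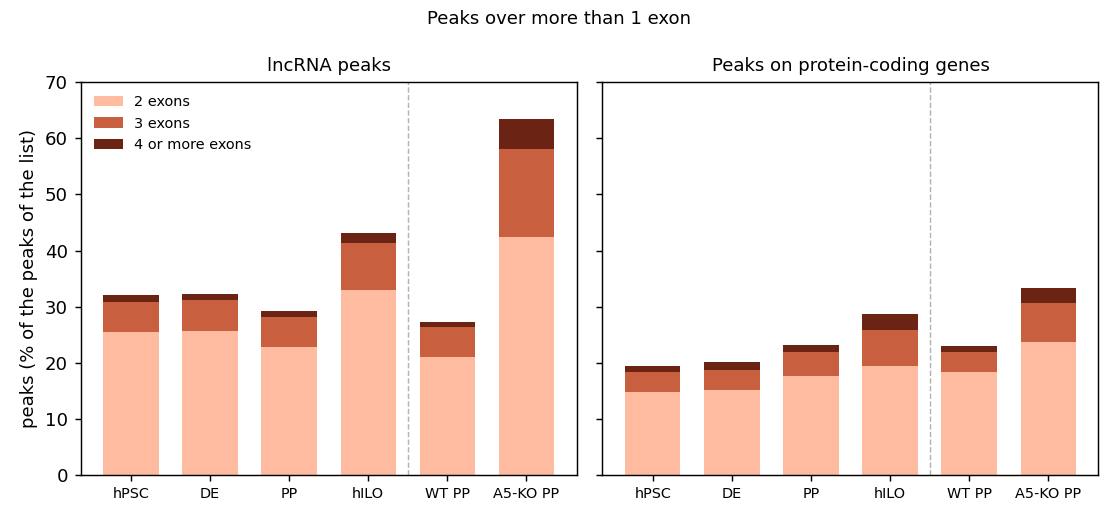
Percentage of lncRNA peaks (left) and of peaks on protein-coding genes (right) that covered 2, 3, or 4 or more exons (y axis) in each list (x axis), with a dashed line between batches. The stacked bar of lncRNA peaks reaches 63.4% in A5-KO PP and 27.3% in WT PP.

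Read values are summarised as the rows list them. The median lncRNA row had 40 input and 407 IP reads in hPSC, and the later stages had 68 and 174, 51 and 255, and 221 and 586. It had 23.5 and 124 in WT PP and 4 and 79 in A5-KO PP. The medians of coding rows were higher in each list, at 94 and 261 in WT PP and 48 and 154 in A5-KO PP. Rows without any input read made up 23.3% of lncRNA rows in WT PP (952 of 4090) and 41.6% in A5-KO PP (4124 of 9912), against 9.83% and 19.9% of coding rows. In the stages these rows were at most 0.341% of lncRNA rows. Rows counted as lncRNA may hold reads of other genes. When the count was limited to lncRNA peaks with 8 lncRNA peaks on each side in the numbering, a choice made after the data were seen, the share without input reads was 12.7% in WT PP (7 of 55, interval 6.30% to 24.0%) and 47.5% in A5-KO PP (152 of 320, interval 42.1% to 53.0%).

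LncRNA genes were more often limited to a single stage than genes in general. A gene was called restricted to a stage when it had a lncRNA peak there and no peak in the 3 other stage lists. This held for 429 of 1986 lncRNA genes in hPSC (21.6%, against 8.37% of all genes with a peak), 363 of 1878 in DE (19.3%, against 6.01%), 200 of 1446 in PP (13.8%, against 3.95%) and 374 of 1700 in hILO (22.0%, against 8.62%). Of 3265 lncRNA genes with a peak in any stage, 41.8% had one in 1 stage (interval 40.2% to 43.5%) and 21.3% in all 4. For 12630 coding genes the shares were 14.4% and 56.4%. Restricted lncRNA genes mostly had 1 peak, in 81.1% to 86.5% of genes per stage, so a single peak decided most of these calls.

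The lncRNAs with most peaks among the restricted genes, chosen after their values were seen, lay beside known regulators in several cases. In hPSC, LINC-ROR, a lncRNA known from reprogramming and pluripotent cells (chr18:57054558-57072119), had 5 peaks, 3 of them in its last exon, and none in any other list. TMEM30A-DT and ENSG00000267260 also had 5 peaks each, and TMEM30A-DT had 1 in WT PP. ENSG00000227733, with 8, lies near NBPF11 in a family of near-identical copies, where reads of the copies cannot be told apart.

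In DE, ENSG00000285205 (chr14:94770271-94774858) had 7 peaks and none in any other list. It starts 158 bases from GSC, the gene of the organizer and endoderm factor goosecoid, on the opposite strand. LINC02955 had 8 DE peaks, with 3 in WT PP against 7 in A5-KO PP. ENSG00000251410 and ENSG00000286504 had 5 each, the first also with 1 in A5-KO PP and the second with 1 in WT PP.

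In PP, HOXA-AS3 (chr7:27129977-27155928, antisense to HOXA3 through HOXA7) had 4 peaks, all in its last exon (exon 3), and none in any other list, the batch 2 progenitors included. LINC00543 (chr13:27953526-27955370), 5548 bases from CDX2 on the opposite strand, had 4 peaks in PP, 2 in WT PP against 3 in A5-KO PP. UNC5C-AS1 had 4 in PP, and 2 and 1 in the lists of batch 2.

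In hILO, DIP2C-AS1 had 5 peaks and was also listed with 5 in WT PP against 5 in A5-KO PP. LINC01522 and LINC02365 had 4 each, and SCTR-AS1, antisense to the secretin receptor gene, had 3. In WT PP and A5-KO PP, LINC01522 had 2 and 0, LINC02365 had 1 and 3, and SCTR-AS1 had 5 and 1. Of the 200 PP-restricted genes, 47.0% had a lncRNA peak in WT PP (interval 40.2% to 53.9%), against 28.6% to 30.8% of the genes restricted to the other stages. In A5-KO PP the shares were 48.5% for PP, 46.6% for hPSC, 55.9% for DE and 61.2% for hILO. The same shares were not computed for restricted coding genes, so whether they are particular to lncRNAs was not tested.

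The rule set for naming stage-restricted genes used the most input reads, which are not tied to the gene here, so the order among the following names carries no information on level. It gave SEMA6A-AS2, ENSG00000223774, CYP4F26P, ENSG00000254222 and ENSG00000288595 for hPSC, and CFAP95-DT, LINC01788, LUARIS, ENSG00000287370 and TLR8-AS1 for DE. For PP it gave NFE2L1-DT, ENSG00000284052, ENSG00000275091, ENSG00000270638 and HOXA-AS3, and for hILO LINC01473, ENSG00000272243, ENSG00000286367, ENSG00000259732 and ENSG00000287236. HOXA-AS3 and CYP4F26P were also among the 5 with most peaks in their stage.

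Lists of lncRNAs known from these lineages were read against the share of all 18866 annotated lncRNA genes with a member peak, which was 10.8%, 10.2%, 7.87% and 9.25% along the stages, 11.4% for WT PP and 28.6% for A5-KO PP, a peak with several identifiers counting for each. Of 7 pluripotency lncRNAs matched, 5 had a peak in hPSC, 4 in DE, and none in PP, hILO or WT PP. LINC-ROR and LNCPRESS1 were listed in hPSC alone, and ESRG, a marker of undifferentiated stem cells, had 3 peaks in hPSC and 3 in DE. LNCPRESS2 had 1 in DE, and LINC00458 1 in hPSC and 2 in DE. LINC00678 had 1 in hPSC, 1 in DE and 1 in A5-KO PP, where it was the pluripotency lncRNA with a peak. MIR302CHG, the host of the miR-302 cluster, had 5 peaks after hPSC, each together with miRNA identifiers, so these were not members.

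Among endoderm and gut tube lncRNAs, LINC00261 and GATA6-AS1 had no peak in hPSC and several in DE and PP. LINC00261, 2356 bases from FOXA2, had 0, 5, 4 and 3 peaks along the stages, 3 in WT PP against 4 in A5-KO PP. Its peaks lay almost all in its last exon (exon 4), and 1 DE peak there ran over 1300 bases. GATA6-AS1 had 0, 4, 3 and 0 along the stages, then 5 and 3 in the WT and knockout lists. HNF4A-AS1 and EVX1-AS had no peak in any list.

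Of 8 pancreatic and islet lncRNAs, 3, 2, 4 and 5 had member peaks along the stages, 4 in WT PP against 5 in A5-KO PP. PLUT (chr13:27819376-27917298), a regulator of PDX1 transcription, had 0, 0, 1 and 2 peaks along the stages, and the WT and knockout lists held 7 and 3. SOX9-AS1 had 2, 0, 4 and 2 along the stages, and 6 and 9 in batch 2. In each list where it had peaks, the identifier of another lncRNA was found among them. MIR7-3HG, which hosts a copy of miR-7, a miRNA abundant in islets, had 1 peak in hILO and 1 in A5-KO PP. MIAT had 2, 2, 3 and 2 member peaks along the stages and 1 and 2 in batch 2, each shared with the identifier of another lncRNA. MEG3, MEG8 and RMST had peaks in 2 or more lists, each together with an identifier of another type, so none was a member.

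Of 8 HOX cluster lncRNAs, 4 had a member peak in PP and 4 in A5-KO PP, against 2, 2 and 3 in the other stages and 1 in WT PP. The share of all lncRNA genes was likewise larger in A5-KO PP (28.6%) than in WT PP (11.4%), so nothing is read from 4 against 1. HOXA-AS2 had 3 peaks in PP and 1 in hILO, with 4 in WT PP and 3 in the knockout. HOXB-AS1 and HOXB-AS3, which overlap, were given the same peaks, 1, 1, 4 and 1 along the stages and 3 in A5-KO PP. HAGLR had 1 in A5-KO PP. HOTAIR had no peak, and HOTAIRM1 and HOTTIP had none of their own.

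Among 13 widely expressed lncRNAs matched, NORAD, a cytoplasmic RNA that binds Pumilio proteins, was the one with member peaks, numbering 1, 2, 1 and 2 along the stages, 5 in WT PP against 4 in A5-KO PP. MALAT1 and NEAT1, abundant nuclear RNAs, carried 4 and 4 peaks in hPSC and 12 and 1 in A5-KO PP, but each shared its peaks with small RNA identifiers annotated within it. In all lists together 11490 peaks carried a lncRNA identifier beside another one. In A5-KO PP, 2057 of 2819 such peaks were shared with a coding gene and 365 with a small RNA but no coding gene. Peaks that shared an identifier with a coding gene or a small RNA are thus outside the members, and with them those of well known hosts of small RNAs. Between 3 and 14 member peaks per list still touched a coding exon of the same strand. GAS5, CRNDE and H19 were given no peak under any combination of identifiers.

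The genes with most peaks in each list included long unspliced and long antisense RNAs. KCNQ1OT1, an imprinted antisense RNA of KCNQ1 that is known for silencing neighbouring genes (chr11:2597308-2700003), had 1, 1, 7 and 31 peaks along the stages, 52 in WT PP against 50 in A5-KO PP. The first 3 stages were low and hILO high, and the 2 genotypes were close. All of these peaks lay in 1 exon. HCG18, in the major histocompatibility region, led in hPSC with 14 peaks and was among the highest in DE with 11 and PP with 10. LINC00205 and PSMG3-AS1 had 12 each in hPSC. TTN-AS1, antisense to the titin gene, had 16 in DE and 15 in WT PP, and ENTPD1-AS1 had 9 in DE.

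LINC00342 had 11 peaks in PP and 13 in hILO, PPP3CB-AS1 had 10 in PP, and LINC01128 had 11 in hILO. MCM3AP-AS1 had 14 in WT PP. In A5-KO PP the genes after KCNQ1OT1 were CCDC26 with 21 peaks and PWRN1, a lncRNA of the Prader-Willi region, with 20, against 0 and 10 in WT PP.

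Along the stages lncRNA peaks were carried over less often than coding peaks. A peak counted as shared when peaks of the other list, on the same strand, covered over 50% of its exonic bases. Of DE lncRNA peaks, 51.1% were shared with hPSC (interval 49.3% to 52.9%), against 66.7% of coding peaks and 64.7% of all peaks. Of PP lncRNA peaks, 47.9% were shared with DE (45.8% to 50.0%), against 57.8% of coding peaks and 57% of all. Of hILO lncRNA peaks, 40.2% were shared with PP (38.3% to 42.1%), against 46.3% of coding peaks and 45.6% of all. In all, 681 lncRNA genes had member peaks in each of the 4 stages and 367 in each of the 6 lists.

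In A5-KO PP most lncRNA peaks had no counterpart in WT PP. Of 9912 lncRNA peaks, 7752 were not shared (78.2%, interval 77.4% to 79.0%), against 53.2% of all peaks of that list and 46.8% of its coding peaks. In the other direction 2079 of 4090 WT PP lncRNA peaks were not shared (50.8%, interval 49.3% to 52.4%), against 50% of all peaks and 50.2% of coding peaks. Of the knockout's lncRNA peaks over several exons 89.1% were unshared, and of those in 1 exon 59.3%. For coding peaks in A5-KO PP these shares were 66.7% and 36.9%. In WT PP the order was the other way: 35.1% of lncRNA peaks over several exons and 56.7% of those in 1 exon were unshared.

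**Figure D4:**
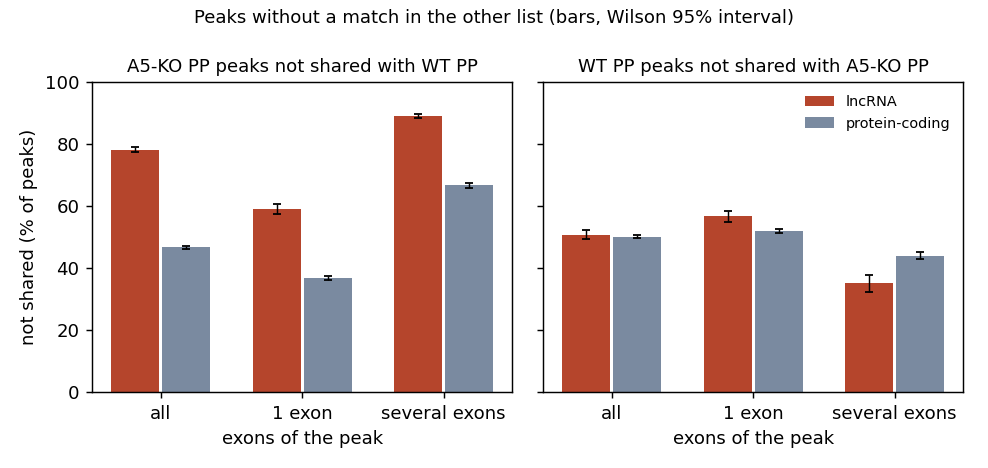
Percentage of peaks without a match in the other genotype's list (y axis) for all peaks, peaks in 1 exon and peaks over several exons (x axis), for lncRNA and coding peaks, with Wilson 95% intervals. In A5-KO PP (left) the lncRNA bars stand at 78.2%, 59.3% and 89.1%, and in WT PP (right) at 50.8%, 56.7% and 35.1%.

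Of 5293 lncRNA genes with a peak in A5-KO PP, 3575 had none in WT PP (67.5%, interval 66.3% to 68.8%), against 31.1% of all genes with a peak in the list. In WT PP, 400 of 2102 lncRNA genes had none in A5-KO PP (19%, interval 17.4% to 20.8%), against 10.3% of all genes. Of the 3575 genes, 2839 had a peak in no other list of the series, which is 53.6% of the lncRNA genes of A5-KO PP, against 21.3% of all its genes. Of the 400 genes it was 217, or 10.3% of the lncRNA genes of WT PP, against 3.3% of all. Peaks on the 3575 genes covered several exons in 82.0% of cases, against 40.2% for the other lncRNA peaks of A5-KO PP. Of these genes 69.4% had 1 peak.

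Among the genes of A5-KO PP alone, those with most peaks were chosen after their values were seen. CCDC26 (chr8:128634199-129683770) had 21 peaks, 18 of them over several exons and 15 of them with exactly 175 exonic bases. MIR646HG (chr20:60087661-60653784) had 12, with 11 over several exons. SLC8A1-AS1, antisense to a sodium-calcium exchanger gene, had 11, all over several exons, LINC01524 had 11 with 10 over several exons, and ENSG00000229425 had 9 with 6. All of these genes reach over long genomic stretches and have 3 or 4 exons in their longest transcript. Among the genes of WT PP alone, DOCK8-AS1, LINC02875, RRAGC-DT and ENSG00000286311 had 3 peaks each and ENSG00000215014 had 2. The naming rule by input reads gave ENSG00000251523, LINC02201, LINC01060, ENSG00000268266 and MLF1-DT for A5-KO PP. For WT PP it gave LINC02435, DOCK8-AS1, ENSG00000272277, ENSG00000288573 and LINC02527. Its order carries no information on level.

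Shared lncRNA peaks allowed a difference of log2 enrichment between genotypes to be formed, but its values were not tied to the peak. Of 2160 pairs, 1028 (47.6%) had a listed value higher in the knockout by 1 or more (log2) and 704 (32.6%) a lower one, against 38% and 28.9% of all 25833 pairs. Among the 237 pairs whose rows had 50 or more input reads in each list, 64 were higher (27.0%) and 75 lower (31.6%), against 22.7% and 21.4% of all such pairs. The larger group thus changed with the read limit. Under that limit 46.0% of the changed lncRNA pairs were higher, with an interval of 38.0% to 54.3% that holds an even split. Since input reads of lncRNA peaks with identical coordinates in the 2 lists correlated with r = 0.05, these counts describe the rows and no change at a given RNA was read from them. The rule named LINC01980, CCDC28A-AS1 and APRG1 as the largest rises and MRPS9-AS2 and LINC01108 (2 peaks) as the largest falls, and their values are not given for that reason.

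LncRNA peaks lay less often in the last exon in A5-KO PP. Among peaks placed on longest transcripts of at least 3 exons, the last exon held 43.7%, 44.8%, 43.4% and 40.1% along the stages. It held 46.3% in WT PP (1332 peaks, interval 43.7% to 49.0%) and 26.0% in A5-KO PP (4104 peaks, 24.7% to 27.4%). Internal exons held 35.4% in WT PP (32.8% to 38.0%) and 57.7% in A5-KO PP (56.2% to 59.2%). For coding peaks the last exon held 55.9% in WT PP against 49.0% in A5-KO PP. First exons held more of the lncRNA than of the coding peaks, at 18.3% against 9.23% in WT PP and 16.3% against 7.49% in A5-KO PP. Peaks over several exons, more common in A5-KO PP, were included, and their part in these shares was not tested.

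The neighbourhood of the peaks also differed. A coding exon lay on the opposite strand of 33.8%, 28.5%, 32.6% and 32.0% of lncRNA peaks along the stages, 16.1% in WT PP (interval 15.0% to 17.3%) and 8.34% in A5-KO PP (7.82% to 8.90%). In batch 1, between 9.27% and 13.1% of lncRNA peaks were covered for over 50% by a peak of the same list on the opposite strand, against 1.93% (WT PP) and 0.706% (A5-KO PP). At such peaks reads of the lncRNA and of the coding gene were told apart by strand only. Peaks outside coding genes on both strands made up 63.7% in WT PP (62.3% to 65.2%) and 72.6% in A5-KO PP (71.8% to 73.5%), and 46.4% to 54.6% in the stages. Among lncRNA peaks, genes with a LINC symbol, given to RNAs between coding genes, held 15.8% in WT PP against 22.8% in A5-KO PP, while antisense (-AS) symbols held 28.4% and 18.4%.

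GGAC, the core of the most used m6A sequence, was more frequent on the RNA strand than on the opposite strand of lncRNA peaks. It occurred in 51.5%, 47.8%, 46.3% and 48.3% of lncRNA peaks along the stages, 53.2% in WT PP against 47.3% in A5-KO PP. On the opposite strand the shares were 42.4%, 38.9%, 36.0%, 37.6%, 37.9% and 33.7%. By count per exonic base GGAC was denser inside lncRNA peaks than in exonic bases of those genes that no peak covered, by 1.64, 1.49, 1.45 and 1.25 times along the stages, 1.61 times in WT PP and 1.34 times in A5-KO PP. The same ratio on the opposite strand was 1.30, 1.17, 1.15, 1.08, 1.05 and 0.953, so the opposite strand was denser inside peaks too in the lists other than A5-KO PP. The looser DRACH match occurred in 89.1% to 94.1% of lncRNA peaks and was at most 1.18 times as dense inside peaks as outside. Coding peaks held GGAC more often in each list, in 59.1%, 56.1%, 52.2% and 57.3% along the stages, 57.5% in WT PP and 55.6% for the knockout. Among peaks of 100 to 200 bases the lncRNA shares were 50.7%, 49%, 48.7% and 47.7% along the stages, against 54.2%, 51.8%, 49.6% and 49.7% of coding peaks. There the order was the other way in WT PP alone, with 51.5% of lncRNA and 49.9% of coding peaks, and A5-KO PP had 46.3% and 50.0%. At this length the intervals of lncRNA and coding peaks overlapped in DE, PP, hILO and WT PP.

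In A5-KO PP, lncRNA peaks shared with WT PP held GGAC in 55.1% of cases (2160 peaks, interval 53.0% to 57.2%) and unshared ones in 45.1% (7752 peaks, 44% to 46.2%). The densities were 4.60 and 3.59 sites per kb, with 2.54 and 2.40 on the opposite strand. In WT PP the shares were 56.0% for shared peaks (53.9% to 58.2%) and 50.5% for unshared ones (48.3% to 52.6%), and the densities 4.55 and 5.06, with 2.57 and 3.20 on the opposite strand. Unshared peaks of WT PP had a higher median GC content than shared ones, 50.7% against 46.5%, and in A5-KO PP the medians were 45.6% and 46.7%. The part of GC content in these shares was not tested. Coding peaks were not split in this way, so whether the difference is particular to lncRNA peaks was not tested either. A match is a description of the sequence and does not mark a methylated base.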

How the data were processed

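After trimming (fastp) and alignment to GRCh38 (HISAT2, at most 1 alignment kept for a read), the authors ran exomePeak2 on the libraries of a population together. For each peak the deposited lists give pooled IP and input read counts, a log2 enrichment, p-values and adjusted p-values, and a score that is a log of the adjusted p-value. The lists as deposited end at an adjusted p-value of 0.05. The sources used here do not say if the counts were summed or averaged, and library totals were not used here.

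Peaks were reduced to the exons of their gene in GENCODE 44 on GRCh38, the build of the lists, and 1072 peaks with an identifier outside that annotation were not counted as lncRNA peaks. Sequence was read from the same build. Chromosome Y genes and the X inactivation transcripts were counted and not named. A gene of the endoderm and gut tube list is not reported here, and no count is given for that list. Computations used Python 3.11.15, numpy 2.4.6 and pandas 2.3.3, with figures by matplotlib 3.10.9, and interval arithmetic was tested on simulated data. No test was run.

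The members, gene lists and naming rule were chosen with earlier results of these data known. The rule named the gene lists in full (with that exception), the 3 genes with most peaks per list, the 5 genes with most input reads among those restricted to a stage or to 1 genotype, and the 3 largest differences each way. Widely expressed lncRNAs without a member peak are counted above and not all named. TUNAR, TUG1 and GSC-DT, also listed, had no match among the lncRNA symbols of the annotation. Genes named by number of peaks among restricted genes, and the second set of sequences, were added after the data were seen, because the read columns were found not to follow the coordinates. The set of 4 shared sequences was picked by mean listed enrichment, which has the same limit.

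Read columns were checked by correlating log2(reads + 1) between lists at peaks with identical coordinates, and within a list between peaks of neighbouring number. Of the peak numbers, 50 (hPSC) to 4550 (WT PP) were absent from a list. No reordering of the rows was applied. Alternatives were other definitions of a lncRNA peak, limits on p, enrichment and reads, other overlaps, exons of the longest transcript only and the opposite strand.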

Additional observations from a re-analysis of the deposited data

How the results depend on the processing

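No paired analysis was possible because each list holds 1 pooled value per peak, and leaving out a library was not run for the same reason. Limits on p, log2 enrichment or reads act on rows whose values need not belong to the peak, and the cause of these shifts was not tested. The larger lncRNA share in A5-KO PP than in WT PP kept its direction in each alternative run, and was smallest between peaks in 1 exon.

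The lncRNA share in hPSC, DE, PP, hILO, WT PP and A5-KO PP was 13.6, 14.2, 12.7, 13.3, 14.6 and 23.1% with any identifier of type lncRNA, 7.51, 7.78, 7.18, 6.65, 8.91 and 10.7% for peaks in 1 exon, and 5.80, 6.46, 5.24, 5.59, 7.90 and 16.4% without coding exons on either strand. With at least 50 input reads it was 6.84, 7.65, 6.08, 7.65, 6.29 and 10.1%. With p below 1e-05 it was 7.67, 8.23, 6.86, 8.04 and 17.2% in the lists other than hILO, and with log2 enrichment of at least 2 it was 10.6, 11.0, 9.74, 11.0 and 9.04% in the lists other than A5-KO PP. Counting exons of the longest transcript only, 21.4, 21.0, 19.6, 29.2, 15.6 and 41.8% of lncRNA peaks covered several. GGAC on the opposite strand occurred in 42.4, 38.9, 36.0, 37.6, 37.9 and 33.7%. The unshared share was 75.0% in A5-KO PP and 41.6% in WT PP with any overlap, and 83.4% and 60.0% with overlap of over 50% of both peaks. With at least 50 input reads the restricted lncRNA genes numbered 218 in hPSC, 238 in DE and 100 in PP, and 46.0% of changed pairs were higher in A5-KO PP, against 59.4% of all changed pairs. Rows without input reads, counted after the data were seen among lncRNA neighbours only, were 12.7% (WT PP) and 47.5% (A5-KO PP). The other 10 alternatives moved by less than the interval or stayed within 1.5 times the count. Some of these moves were large and opposite in direction. Under the limit of p below 1e-05, the hILO-restricted count rose from 374 to 516. The hPSC-restricted count fell from 429 to 364, that of DE from 363 to 314, and that of PP from 200 to 138. The hILO count, lower than that of hPSC without this limit, was thus higher under it.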
